A study of Mus musculus with 13 samples.

Results

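The genes described here are the transcription factor p53 (Trp53), the proteins that restrain it and the genes it is known to induce, measured in whole brains of mouse embryos with and without Meg3. The list held 35 symbols. A probe set is the group of short probes that reads 1 transcript on the array, and it was taken when its annotation named exactly 1 of these symbols. Each gene was then read from its probe set with the highest mean signal over the 13 arrays, a choice that used no difference between genotypes. By this rule 32 of the 35 genes had a probe set, among 18193 genes named on the array. For Trp53, Bax and Gdf15 the annotation used named no probe set, and they were not analysed here. Of the 32 genes, 28 had a mean signal above the filter of 56.9 and were among the 12918 genes tested. Cdkn2a, Fas, Tnfrsf10b and Eda2r lay below it and were not tested.

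Each array held RNA from the whole brain of 1 embryo at embryonic day 18.5. There were 6 wild-type and 7 Meg3 knock-out embryos, which the series describes as biological replicates, drawn from 5 litters. Litter 148 held knock-out 1, litter 219 wild-type 1 and 2 and knock-out 2, litter 238 wild-type 3 and knock-out 3 and 4, litter 250 wild-type 4 and 5 and knock-out 5 and 6, and litter 262 wild-type 6 and knock-out 7. The labels name no other allele or treatment, and the sources used here do not give the strain, the sex or the part of Meg3 that was removed.

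p53 is a transcription factor that is kept scarce by the ubiquitin ligase Mdm2 and silenced by its partner Mdm4, and is released by DNA damage, oncogene signals and faulty ribosome assembly. Once active it induces genes that halt the cell cycle, repair DNA, adjust metabolism or start cell death, and it induces Mdm2 itself, which closes a negative feedback loop. In the embryonic brain the loop matters for neural progenitors, which die in a p53-dependent way when Mdm2 or Mdm4 is lost. Meg3, a maternally expressed long non-coding RNA, is reported to raise p53 protein and the transcription of p53 reporter genes in cultured cells. The question addressed here is whether the RNA levels of p53 regulators and targets differed in brains without Meg3. p53 is regulated largely as a protein, which the arrays do not measure.

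Meg3 averaged 4955 ± 1374 (SD, n = 6) in wild-type brains and 378 ± 106 (SD, n = 7) in knock-outs, a log2 difference of -3.64 ± 0.20 SE (limma adjusted p = 1.3e-07), and the groups did not overlap. All 6 neuronal and all 6 progenitor markers lay above the filter, with summed signals of 53760 to 68130 in knock-out and 51370 to 65840 in wild-type brains for neurons. Of 5 named markers of muscle, pituitary and retina, Gh, Prl and Crx lay below the filter and the muscle actins Acta1 and Actc1 above it, Acta1 at 280.4 to 570.9 in every array. The choroid plexus markers, 7 of 8 above the filter and none at 0, summed to 8992 to 31650 in knock-out and 22910 to 37960 in wild-type arrays. No marker of any of the 10 lists passed the threshold, and the part of any of these cell types in the values below was not tested. In whole tissue, fewer cells of a type and less RNA per cell cannot be told apart. The Actb controls compare signal from the 3' and the 5' end of the message, which reports on RNA integrity. Their ratio was 2.92 in wild-type 2 and 1.81 in knock-out 1, against 1.32 to 1.495 in the other arrays.

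No gene of the p53 network differed between knock-out and wild-type brains past the threshold of 0.05 on the limma adjusted p. Of the 28 genes tested 0 were called, where 3 of 12918 genes (0.0232%) were called in all. At an unadjusted p under 0.05 the count was 1 of 28, the death gene Pmaip1, which was lower, against 1.97% of all genes. The exact permutation test over the 1716 ways to divide the 13 arrays gave no p under 0.05 for a tested gene of the network, and its smallest was 0.0559, for Gadd45a. In 0 of the 28 genes did the arrays of the groups separate completely, which happened in 0.0774% of all genes.

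The differences lay on both sides of 0. The knock-out mean was higher for 16 and lower for 12 of the 28 genes, with a median log2 difference of 0.02 and a range from -0.41 for Pmaip1 to 0.27 for Plk3. Over all genes tested 65.4% had a higher mean, and the median was 0.04. This split depends on the scaling of the arrays, which moves most genes the same way. With quantile normalization or equal trimmed means 12 of the 28 genes were higher, where the median of all genes became -0.03 and -0.01. With median centring 4 of the 28 were higher, where the median of all genes became -0.15 and that of the network -0.18. No gene of the network was called under any of these scalings.

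The intervals show how large a difference could have gone unseen. The 95% interval of 27 of the 28 genes held 0, the exception being Pmaip1, whose interval ended at -0.0016. On the deposited scaling the interval excluded a 1.5-fold fall for 25 of the 28 genes (89.3%, against 94% of all genes). For 26 it excluded a 1.5-fold rise. With quantile normalization, equal trimmed means and median centring 24, 24 and 21 intervals excluded that fall, and 28, 27 and 28 that rise. On the deposited scaling a fall of that size lay inside the interval for Pmaip1, Dram1 and Sesn2, and a rise for Plk3 and Sesn2. All 28 intervals excluded a 2-fold change in either direction on the deposited scaling and with equal trimmed means, and 27 excluded a 2-fold fall with quantile normalization or median centring. These intervals are for 1 gene at a time and on the log2(signal + 16) scale, which understates the change of weak genes.

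**Figure D1:**
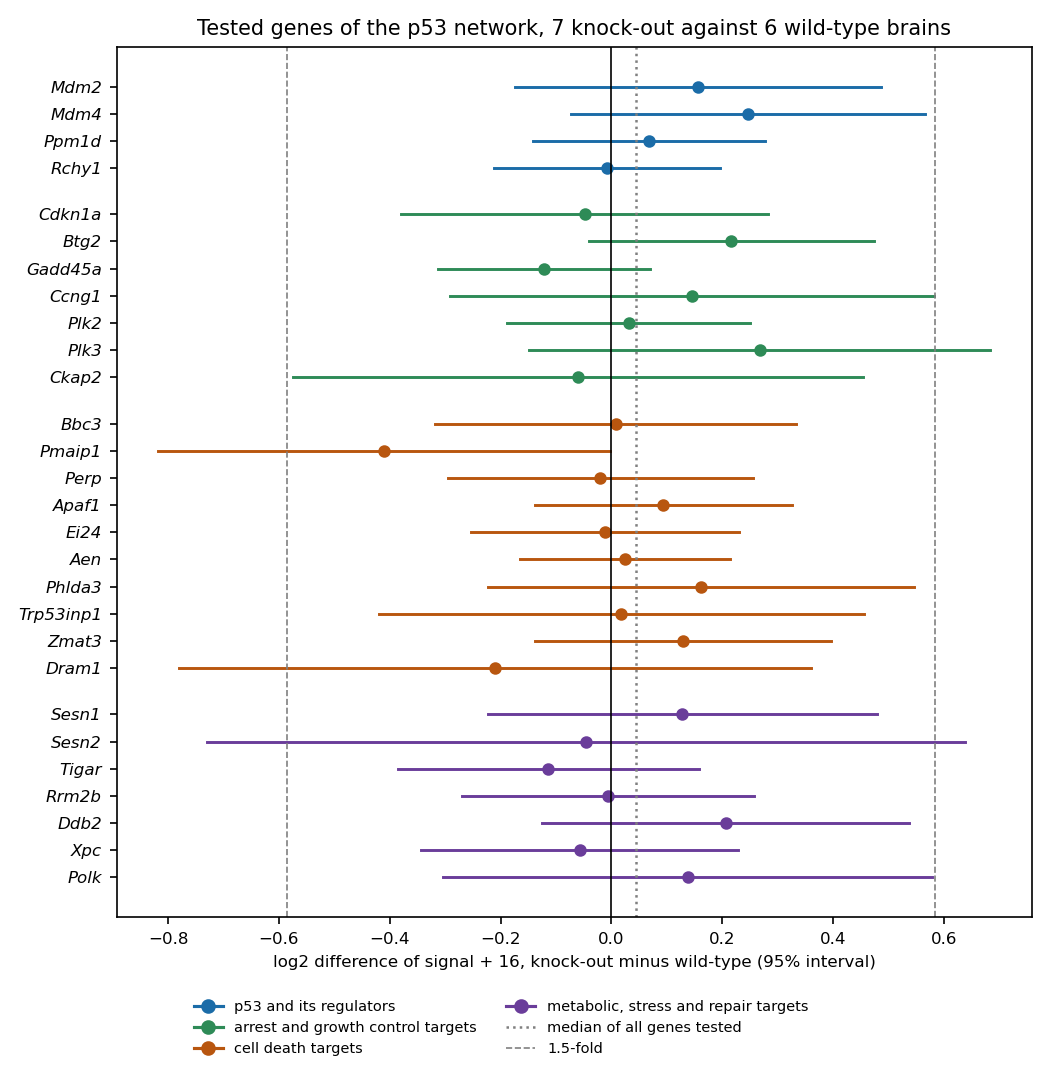
Log2 difference of signal + 16 between 7 knock-out and 6 wild-type brains for the 28 tested genes, in order of role; points are estimates, bars are 95% intervals from limma, the dotted line is the median of all genes tested (0.04) and the dashed lines mark 1.5-fold. The Pmaip1 interval alone ends below 0, and the estimates of the other genes lie from -0.21 to 0.27.

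p53 binds DNA as a tetramer over 2 copies of a short palindromic element, the p53 half-site, of 10 bases. The promoter windows of RefSeq for the mouse assembly GRCm38.p6, from 250 bases before to 50 bases after each transcription start, were searched for perfect half-sites; the element is its own reverse complement, so both strands were covered. There were 37 windows for 27 of the 35 listed genes, and 14 windows (37.8%) held a half-site, against 8.36% of all 32851 windows and 6.96% of those of the genes tested. A run of 2 half-sites in direct succession with at most 1 mismatch stood in 2 of the 37 windows (5.41%), those of Cdkn1a and Ccng1, against 0.0883% of all windows. The match is a property of the list, whose genes were picked as p53 targets, and is a description of letters and not of binding. These 2 elements, and the half-sites of 3 other genes that the text returns to, are shown so that the letters that matched can be read. Each is printed 5′ to 3′ on the strand of its gene, with the half-sites in capitals. In the runs of Cdkn1a and Ccng1 the capitals include 1 mismatch each, so only 1 half-site of each run is perfect.
Cdkn1a, chr17:29090918-29090957, plus strand, half-sites 51 to 32 bases before the start: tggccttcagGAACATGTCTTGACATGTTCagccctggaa
Ccng1, chr11:40755452-40755491, minus strand, half-sites 195 to 176 bases before the start: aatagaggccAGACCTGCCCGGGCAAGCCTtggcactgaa
Mdm2, chr10:117710925-117710954, minus strand, half-site 186 to 177 bases before the start: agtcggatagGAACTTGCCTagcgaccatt
Ppm1d, chr11:85311112-85311141, plus strand, half-site 132 to 123 bases before the start: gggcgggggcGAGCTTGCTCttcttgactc
Sesn1, chr10:41887256-41887285, plus strand, half-site 173 to 164 bases before the start: cttggccttcAAGCTTGTTTttgctggcct

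The differences of genes with and without a half-site in the window are set side by side here. The 11 tested genes with one had a median log2 difference of 0.02, between -0.12 and 0.16, and 6 of them had a higher knock-out mean. The 10 tested genes with a window and no half-site had a median of 0.06, and 7 had a higher mean. The 7 tested genes without a window in the table had a median of -0.01, and 3 had a higher mean. No test was made of the difference between these groups of genes. Bases outside the windows were not searched, so a gene without a half-site here may hold one elsewhere.

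The regulators of p53 did not differ past the threshold. The knock-out mean was higher for 3 and lower for 1 of the 4 tested, with a median log2 difference of 0.11, which was 0.05, 0.06 and -0.08 with quantile normalization, equal trimmed means and median centring. Mdm2, the ubiquitin ligase that marks p53 for destruction and is itself induced by p53, had signals of 681, 924 and 1242 (lowest, median and highest) in knock-out and of 642, 773 and 1157 in wild-type arrays. The groups overlapped over nearly their whole range, and only knock-out 1 exceeded the highest wild-type array. Its log2 difference came to 0.16 (95% interval -0.17 to 0.49, limma adjusted p = 1.00), and the second Mdm2 probe set above the filter gave 0.12. Without knock-out 1, wild-type 2 or wild-type 3 it was 0.077, 0.26 or 0.098, and with the Actb ratio as a covariate 0.27. By litter it was -0.12, 0.30, 0.08 and 0.28 (litters 219, 238, 250 and 262).

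Mdm4, the relative of Mdm2 that masks the activation domain of p53, had signals of 645, 825 and 988 in knock-out and 440, 718 and 899 in wild-type arrays. Its lowest wild-type value was wild-type 1, and 2 knock-out arrays exceeded the highest wild-type array. The difference on the log2 scale was 0.25 (95% interval -0.07 to 0.57, limma adjusted p = 1.00) and was 0.49, 0.08, 0.16 and 0.09 in litters 219, 238, 250 and 262. It was 0.12 without wild-type 1, and the second Mdm4 probe set gave 0.54. Ppm1d, the phosphatase Wip1 that switches p53 signalling off after damage, averaged 669.6 ± 55.4 (SD, n = 6) in wild-type and 705 ± 77.3 (SD, n = 7) in knock-out brains, with a log2 difference of 0.07 (95% interval -0.14 to 0.28). Rchy1, the ubiquitin ligase Pirh2 and another p53 target that acts on p53, had means of 1772 ± 123 (SD, n = 7) and 1787 ± 184 (SD, n = 6), and its log2 difference of -0.01 had an interval of -0.21 to 0.20. Wild-type 1 was again the lowest array for Rchy1, at 1439, with the other wild-type arrays between 1729 and 1927. Cdkn2a, which encodes the Mdm2 inhibitor Arf, lay below the filter with signals of 7.61 to 45.1 in knock-out and 3.50 to 29.5 in wild-type arrays.

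The genes that halt the cell cycle or restrain growth included the best known p53 target, Cdkn1a. The knock-out mean was higher for 4 and lower for 3 of the 7 tested, 0 were called, with a median of 0.03 that was 0.02, -0.02 and -0.17 with quantile normalization, equal trimmed means and median centring. Cdkn1a, the p21 inhibitor of cyclin-dependent kinases, whose promoter holds the pair of half-sites shown above, had signals of 1216, 1461 and 1799.8 (lowest, median and highest) in knock-out arrays. In wild-type arrays they were 997.7 (wild-type 2), 1584 and 1975 (wild-type 3). Every knock-out array lay between the lowest and the highest wild-type array. The means were 1475 ± 186 (SD, n = 7) and 1558 ± 391 (SD, n = 6), and the log2 difference was -0.05 (95% interval -0.38 to 0.28, limma adjusted p = 1.00). On the deposited scaling the largest fall inside the interval was 1.30-fold. With quantile normalization, equal trimmed means and median centring the difference was -0.09 ± 0.15 SE, -0.10 ± 0.15 SE and -0.24 ± 0.18 SE. The last of these allows a larger fall. Its second probe set had a difference of 0.17 (95% interval -0.22 to 0.55), so the sign of Cdkn1a depended on the probe set. With single arrays left out its difference ranged from -0.17 without wild-type 2 to 0.028 without wild-type 3.

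Ccng1, cyclin G1, an early p53 target that recruits a phosphatase to Mdm2, had signals of 1150.5 to 1601 in knock-out and 561 to 1817 in wild-type arrays. Both ends of the wild-type range came from litter 219, with wild-type 1 lowest and wild-type 2 highest, while the other 4 wild-type arrays lay between 1307 and 1396. The log2 difference was 0.15 (95% interval -0.29 to 0.58, limma adjusted p = 1.00), and it was -0.07 without wild-type 1 and 0.26 without wild-type 2. Btg2, an antiproliferative gene switched on as neural progenitors start to produce neurons, averaged 408 ± 65.6 (SD, n = 6) in wild-type and 475 ± 59.4 (SD, n = 7) in knock-out brains. Its log2 difference came to 0.22 (95% interval -0.04 to 0.47, limma adjusted p = 1.00), with 3 knock-out arrays above the highest wild-type array and the rest within its range. It was 0.40, -0.02, 0.15 and 0.37 in the 4 litters, and 0.02 at the second Btg2 probe set.

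Gadd45a, a stress gene that acts in growth arrest and DNA repair, had the narrowest spread in this group. Its signals were 102, 125 and 144 in knock-out and 126, 135 and 143 in wild-type arrays. Of the 7 knock-out arrays 4 lay below the lowest wild-type array, 2 within the wild-type range and 1, knock-out 2, just above it. The difference on the log2 scale was -0.12 (95% interval -0.31 to 0.07, exact permutation p = 0.0559). With quantile normalization and median centring it was -0.31 and -0.32, where its unadjusted limma p fell under 0.05 and its adjusted p did not. The difference was 0.14 in litter 219 and -0.15, -0.14 and -0.19 in litters 238, 250 and 262. Plk3, a polo-like kinase of the stress response, had signals of 193 to 311 in knock-out and 93.4 to 284 in wild-type arrays, where both extremes of the wild-type range again came from litter 219. Its log2 difference was 0.27 (95% interval -0.15 to 0.68), and 0.096 without wild-type 2. Plk2, a related kinase, had a log2 difference of 0.03. Ckap2, a spindle protein that was counted in this group, had one of -0.06. In litters 219, 238, 250 and 262 the difference of Ckap2 was 0.88, -0.13, -0.28 and -0.47. For Ckap2 the groups overlapped, but knock-out 2 at 488 and wild-type 2 at 502 stood above all other arrays, which reached 372.

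**Figure D2:**
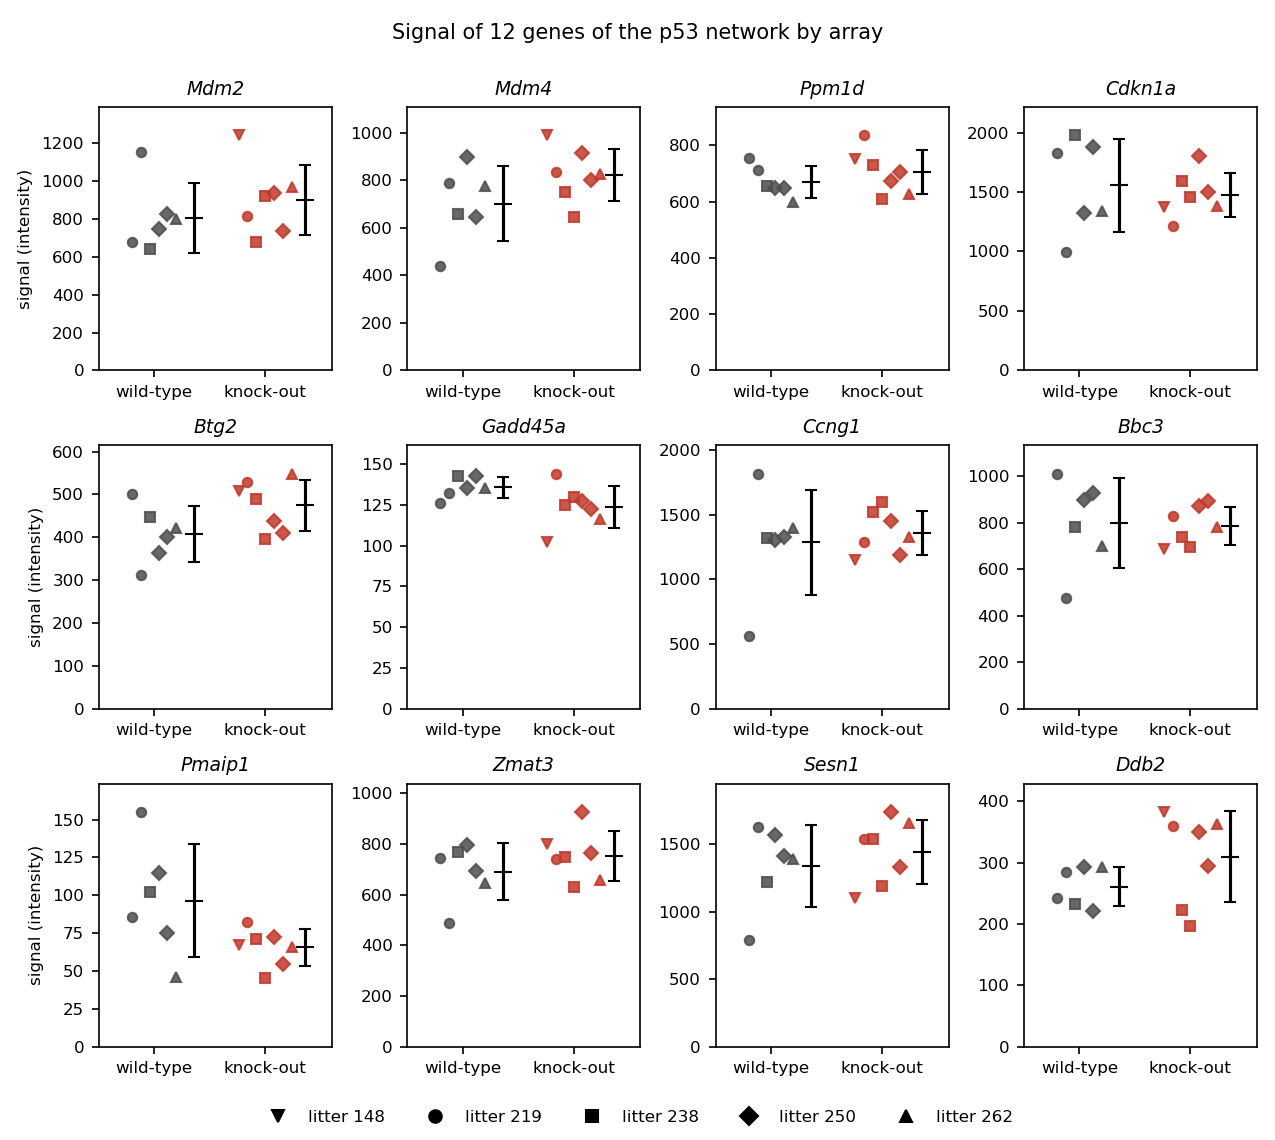
Signal (linear intensity) of 12 genes of the p53 network in each of the 13 arrays, by genotype, with the litter shown by the marker; the horizontal tick and bar beside each group are the mean and SD (wild-type n = 6, knock-out n = 7), and each vertical axis starts at 0. The groups overlap in every panel, and the wild-type arrays of litter 219 (grey circles) often hold an end of the wild-type range, as for Ccng1 at 561 and 1817.

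Among the genes of cell death, Pmaip1 was the only one with an unadjusted p under 0.05. The knock-out mean exceeded the wild-type mean for 6 of the 10 tested and lay under it for 4, and 0 were called, with a median of 0.01. With quantile normalization, equal trimmed means and median centring 3, 3 and 0 of the 10 were higher. Pmaip1 encodes Noxa, a BH3-only protein that neutralises Mcl1. Its signals were 67.5, 82.3, 70.9, 45.7, 72.2, 54.4 and 66.2 in knock-out 1 to 7 and 85.7, 155, 102, 115, 75.1 and 46.3 in wild-type 1 to 6. The knock-out arrays sat in the lower part of the wild-type range, and 4 of the 6 wild-type arrays exceeded every knock-out array, but wild-type 6 was nearly the lowest of all. The log2 difference was -0.41 ± 0.19 SE (95% interval -0.82 to -0.0016, unadjusted limma p = 0.0492, adjusted p = 1.00), and the exact permutation p was 0.0746. It was -0.42, -0.69 and -0.47 in litters 219, 238 and 250 and 0.40 in litter 262. Over 30 alternatives it ranged from -0.63 with quantile normalization to -0.26 without both wild-type arrays of litter 219, and the adjusted p was at least 0.635. With 1 or 64 added to the signal in place of 16 it was -0.48 and -0.28, and with litter as a block -0.36. In each of these the unadjusted limma p of Pmaip1 was not under 0.05. With quantile normalization, equal trimmed means and median centring the difference was -0.63, -0.46 and -0.61. Under these 3 scalings its unadjusted limma p was under 0.05. With single arrays left out the difference ranged from -0.57 without wild-type 6 to -0.28 without wild-type 2. The signals of Pmaip1 are near the filter of 56.9, and only 1 probe set was annotated to it.

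Bbc3, which encodes Puma, the BH3-only protein through which p53 kills many neurons, showed almost no difference in mean. Its signals were 688, 779.97 and 894 (lowest, median and highest) in knock-out and 474, 840.2 and 1011 in wild-type arrays. Both the lowest and the highest of the 13 arrays were wild-type arrays of litter 219, and the knock-out arrays lay between them. Its log2 difference came to 0.01 (95% interval -0.32 to 0.33, limma adjusted p = 1.00). Its sign changed under 13 of 31 alternatives, and with single arrays left out it ranged from -0.13 without wild-type 2 to 0.083 without wild-type 1. Apaf1, which assembles the apoptosome around cytochrome c, had means of 966 ± 100.2 (SD, n = 7) and 906 ± 118 (SD, n = 6) and a log2 difference of 0.09 (95% interval -0.14 to 0.33), between 0.042 without wild-type 1 and 0.15 without wild-type 2. Perp, a desmosomal membrane protein, had one of -0.02, Ei24, a protein of the endoplasmic reticulum, one of -0.01, and Aen, a nuclease of apoptotic cells, one of 0.02. The 4 Aen probe sets ranged from -0.15 to 0.07.

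Phlda3, which blocks Akt signalling at the membrane, averaged 513 ± 140.2 (SD, n = 6) in wild-type and 558 ± 77.2 (SD, n = 7) in knock-out brains. The low wild-type mean came from wild-type 2, at 257, while the other wild-type arrays lay between 487 and 644 and overlapped the knock-out arrays, which lay between 455 and 646. The difference on the log2 scale was 0.16 (95% interval -0.22 to 0.55), and -0.02 without wild-type 2. Zmat3, an RNA-binding protein and p53 target, had a log2 difference of 0.13 (95% interval -0.14 to 0.40), with signals of 629 to 926 in knock-out and 489 to 796 in wild-type arrays. Leaving out wild-type 2 gave 0.036 for Zmat3, and leaving out knock-out 5 gave 0.079. Trp53inp1, which promotes p53 phosphorylation and autophagy, had one of 0.02 over wide ranges of 1422 to 2761 and 1013 to 2627. Dram1, a lysosomal protein of autophagy, had one of -0.21 (95% interval -0.78 to 0.36). A single array, knock-out 4 at 9.40, lay far below the 48.2 to 104 of the other knock-out arrays.

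The death receptors Fas, Tnfrsf10b and Eda2r, which p53 induces in many tissues, all lay below the filter. Fas averaged 14.7 ± 13.9 (SD, n = 6) in wild-type and 30.4 ± 14.6 (SD, n = 7) in knock-out arrays. Tnfrsf10b averaged 12.3 ± 16.8 (SD, n = 6) and 24.3 ± 15.3 (SD, n = 7), and Eda2r 47.3 ± 20.8 (SD, n = 6) and 54.0 ± 8.83 (SD, n = 7), in the same order. With Cdkn2a all 4 untested genes of the network had a higher knock-out mean, with log2 differences of 0.62, 0.56, 0.20 and 0.47, while their arrays overlapped. Over all 18015 probe sets below the filter 65.2% had a higher knock-out mean, with a median log2 difference of 0.09. Of the 27022 above it 72.5% did, with a median of 0.08, so this direction was not particular to weak probe sets.

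The targets in metabolism, stress and repair did not share a direction. Means were higher in knock-out brains for 3 of the 7 tested and lower for 4, and 0 were called, with a median of -0.01 that was -0.09, -0.06 and -0.20 with quantile normalization, equal trimmed means and median centring. Sesn1, a sestrin that restrains mTORC1 under stress and whose promoter half-site is shown above, had signals of 1100.1 to 1741 in knock-out and 794 to 1632 in wild-type arrays and a log2 difference of 0.13 (95% interval -0.22 to 0.48). Tigar, a phosphatase that lowers glycolytic flux, had one of -0.11 (95% interval -0.39 to 0.16). For Tigar knock-out 7 lay at 201, below all other arrays, which ranged from 300.5 to 397, and the log2 difference was -0.018 without it and -0.17 without knock-out 1. The 3 Tigar probe sets above the filter ranged from -0.11 to 0.15.

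Ddb2, which recognises UV damage in DNA, had signals of 383, 359.6, 224, 196, 351, 294 and 362 in knock-out 1 to 7. In wild-type 1 to 6 they were 242, 284, 234, 292.5, 221 and 293. Of the 7 knock-out arrays 5 exceeded the highest wild-type array, while both knock-out arrays of litter 238 lay near the bottom of the range. The log2 difference was 0.21 (95% interval -0.13 to 0.54, exact permutation p = 0.204), and the second Ddb2 probe set gave 0.24. By litter it was 0.43, -0.15, 0.32 and 0.29 in litters 219, 238, 250 and 262, and without litter 238 it was 0.38. Xpc, the partner of Ddb2 in excision repair, had a log2 difference of -0.06, Rrm2b, the p53-inducible subunit of ribonucleotide reductase, one of -0.01, and Polk, a translesion polymerase, one of 0.14.

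Several genes of the network were read by more than 1 probe set. The 32 genes had 60 probe sets, of which 48 lay above the filter. Of these 48 probe sets 0 were called, against 0.0629% of all 27022 probe sets, and 0 had an unadjusted p under 0.05, against 3.96%, although Pmaip1 passed that level in the fit of 1 probe set per gene. Of the 15 genes with more than 1 probe set above the filter, 5 had differences of both signs, namely Cdkn1a, Aen, Sesn2, Tigar and Rrm2b. The smallest unadjusted p of the 48, 0.0532, belonged to a Sesn2 probe set.

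Sesn2, a sestrin induced by p53 and by starvation signals, was read by 2 probe sets of almost equal signal that gave different pictures. The probe set with the higher mean had signals from 38.4 to 221 in knock-out and from 74.9 to 217 in wild-type arrays, a log2 difference of -0.05 (95% interval -0.73 to 0.64). Litter 219 had the lowest mean, 69.4 over 3 arrays, against 143 to 213 in the other litters, and knock-out 7 of litter 262 was as low, at 90.8. The difference changed sign with single arrays left out, from -0.19 without wild-type 2 to 0.19 without knock-out 2. The other probe set averaged 119 ± 34.4 (SD, n = 6) in wild-type and 153 ± 17.9 (SD, n = 7) in knock-out arrays. Its log2 difference was 0.37 ± 0.17 SE (unadjusted limma p = 0.0532, adjusted p = 1.00, exact permutation p = 0.0338), and its lowest array was wild-type 2 at 57.1. The positions of these probe sets in the transcript were not analysed here.

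**Figure D3:**
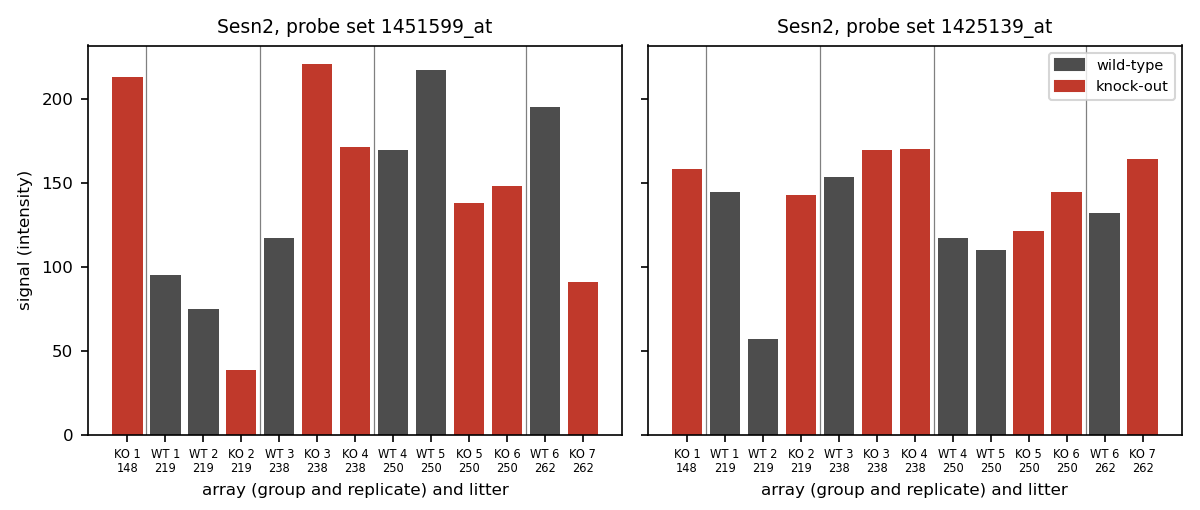
Signal (linear intensity) of both Sesn2 probe sets in each array, with arrays in order of litter, wild-type in grey and knock-out in red. The first probe set is low in all 3 arrays of litter 219 (38.4 to 94.9), while the second is low only in wild-type 2 (57.1).

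The litters were compared in the same arrays with genotype in the model, since embryos of a litter share a dam and may share handling, which cannot be told apart. Of the 28 genes 0 passed the moderated F test of limma after adjustment, against 0.0387% of all genes, and the smallest adjusted p was 0.184. At an unadjusted p under 0.05 there were 2 of 28, Sesn2 and Ddb2, with limma adjusted p of 0.184 and 0.301, against 15% of all genes. The count was 5 of 28 with quantile normalization, with means over probe sets and without wild-type 1, and whether the share differs from that of all genes was not tested. Ddb2 averaged 218 in litter 238 and 289.6 to 383 in the other litters. Ppm1d averaged 612 in litter 262 and 768 in litter 219, Plk2 averaged 3177 in the single array of litter 148 and 4003 in litter 219, and Dram1 averaged 40.7 in litter 238 and 76.9 in litter 219. Tigar averaged 260.5 in litter 262 and 397 in litter 148. The unadjusted p of the moderated F test was 0.163 for Ppm1d, 0.259 for Plk2, 0.201 for Dram1 and 0.0726 for Tigar. These litter means are not adjusted for genotype. The low mean of Dram1 holds knock-out 4 at 9.40, and that of Tigar knock-out 7 at 201.

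Within the 4 litters that held both genotypes, 4 of the 28 genes had a higher knock-out mean in each litter, namely Mdm4, Ppm1d, Plk2 and Sesn1, against 8% of all genes. None was lower in each litter, against 3.28%. In number of genes both counts lie close to those shares, and whether they differ was not tested. The differences inside litters were small for these 4 genes outside litter 219, at 0.02 to 0.25. The median over the 28 genes was 0.22 in litter 219, where 22 of 28 were higher, and -0.03, 0.02 and -0.01 in litters 238, 250 and 262. All genes tested had medians of 0.16, -0.04, 0.03 and -0.03 in the same order, so the medians of the network had the sign of the medians of all genes in each litter.

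Much of the spread came from both wild-type brains of litter 219. These 2 arrays held the lowest of the 13 values for 17 of the 28 genes (60.7%, against 48.6% of all genes) and the highest for 6 (21.4%, against 29.4%). The median absolute log2 difference between the 2 littermates was 0.65 over the 28 genes and 0.52 over all genes, while that between the wild-type arrays of litter 250 was 0.14 in both. The littermates went opposite ways for different genes. Ccng1 read 561 and 1817, Polk 80.2 and 234.5 and Trp53inp1 1013 and 2627 in wild-type 1 and wild-type 2, while Cdkn1a read 1826 and 997.7 and Bbc3 1011 and 474 in the same order. Wild-type 2 has the high Actb ratio of 2.92 given above, wild-type 1 has one of 1.34, and their part in these values was not tested. Without both arrays the median log2 difference of the 28 genes was -0.02, 13 were higher and 15 lower, and 0 were called.

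**Figure D4:**
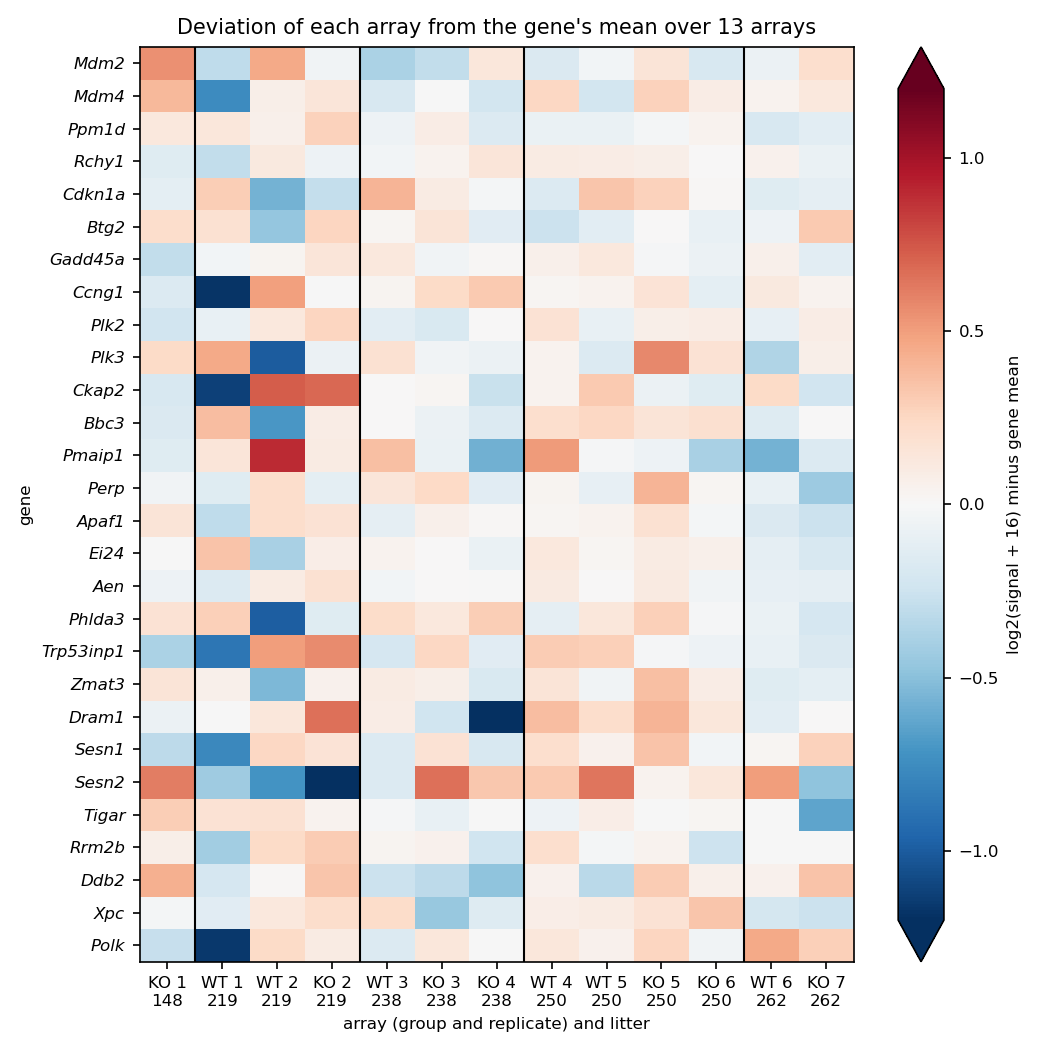
Deviation of each array from the mean of the gene over 13 arrays, on the log2(signal + 16) scale, for the 28 tested genes (rows) and 13 arrays (columns, with the litter under the array name); red is above and blue below the mean, and colours saturate at the ends of the bar. The strongest colours stand in wild-type 1 and 2 of litter 219 and in single cells such as Dram1 in knock-out 4, and no block of rows separates knock-out from wild-type columns.

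Genes of the p53 pathway outside the 35 were counted by role. Of 23 upstream kinases, modifiers and cofactors 20 were tested, with higher means for 12, lower means for 8, 0 called and a median log2 difference of 0.04. The smallest p in that list belonged to Ppp1r13b, the p53 cofactor Aspp1, at 0.15 ± 0.11 SE, the ubiquitin ligase Huwe1 at 0.25 ± 0.18 SE and the checkpoint kinase Chek2 at -0.13 ± 0.11 SE. In the p53 family Trp73 had a difference of -0.09 and Trp63 lay below the filter. Of 33 further induced genes and parts of the apoptosis machinery 26 were tested, with higher means for 12, lower means for 14, 0 called and a median of -0.02. With quantile normalization, equal trimmed means and median centring 7, 10 and 0 of these 26 were higher, and 9, 9 and 2 of the 20 upstream genes. The smallest p among the induced genes belonged to the ubiquitin ligase Trim32 at -0.15 ± 0.11 SE, to Tsc2, which restrains mTORC1, at 0.18 ± 0.15 SE and to the arrest gene Rprm at 0.17 ± 0.14 SE.

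Cell division genes, which active p53 lowers through p21 and the DREAM repressor complex, mostly had lower means in knock-out brains, and 0 of them were called. Of 20 listed 19 were tested, with higher means for 3, lower means for 16 and a median log2 difference of -0.13, against 0.04 over all genes. With median centring and quantile normalization 0 of 19 were higher, against 12.3% and 39.2% of all genes, and with equal trimmed means 2 of 19, against 46.8%. The mitotic kinase Cdk1 had a difference of -0.24 ± 0.14 SE, the kinase Aurka one of -0.21 ± 0.12 SE and Birc5, which encodes survivin, one of -0.22 ± 0.14 SE (limma adjusted p = 1.00 for each). The litters differed in direction. The median was -0.27, -0.24 and -0.36 in litters 238, 250 and 262 and 0.37 in litter 219, where 18 of 19 were higher. The wild-type side of litter 219 is wild-type 1 and 2, the littermates that went opposite ways for different genes. Without both arrays 3 of the 19 were higher, 16 lower and 0 called. The median was then -0.17, against 5.9e-05 over all genes. Cdkn1a itself, the p21 gene, had differences of -0.05 and 0.17 at its 2 probe sets over all 13 arrays. These genes also mark dividing progenitors, and fewer dividing cells and less of their RNA per cell cannot be told apart here.

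**Figure D5:**
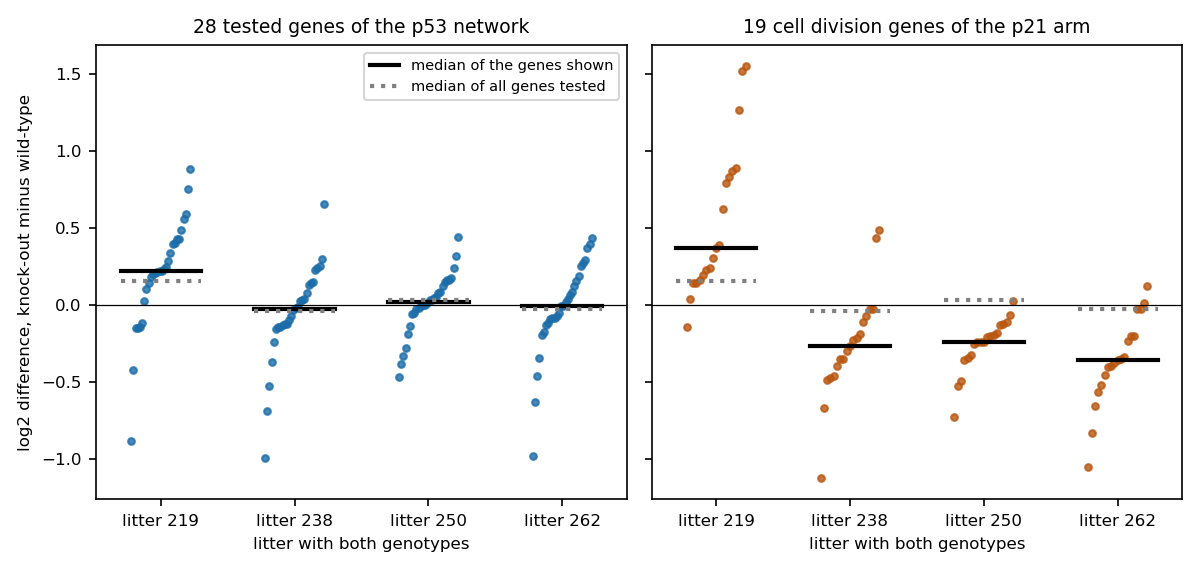
Log2 difference between the knock-out and wild-type means of each of the 4 litters with both genotypes, for the 28 tested genes of the p53 network (left) and for 19 cell division genes (right); each point is 1 gene, the solid line is the median of the genes shown and the dotted line that of all genes tested. The p53 network stays near the median of all genes in each litter, while the cell division genes lie below it in litters 238, 250 and 262 and above it in litter 219 (medians of -0.27, -0.24, -0.36 and 0.37).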

How the data were processed

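RNA of 13 whole brains, 1 per embryo, was measured on Affymetrix mouse genome arrays. A lipid tissue kit served for the extraction of total RNA, per the labels' protocols, which was labelled with biotin in 1 cycle of amplification. The authors deposited 1 table of linear intensity values per probe set, and the sources used here do not give the software, summary method or scaling behind them. Groups came from the sample titles, and litters from the leading number of the embryo labels.

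Of 45101 probe sets 64 were controls, 34945 had 1 gene symbol, 932 several and 9160 none in the annotation used. Intensities were turned into log2(signal + 16). Probe sets above the 40th percentile of the mean were kept, and 1 per gene, with the highest mean signal, was used. The genotype comparison used limma 3.58.1 (lmFit, eBayes; R 4.3.3) with two-sided p-values, no litter term, and a threshold of 0.05 after adjustment by Benjamini-Hochberg over the 12918 genes. Litters were compared with the moderated F test in a model with genotype. Exact permutation tests were two-sided over the 1716 splits of the arrays, with a smallest possible p of 0.00117, and ignored litter. The gene test was tested on simulated data first. Precision is limited by the number of arrays.

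The genes and lists were chosen with earlier results of these data known. Values in full are given for Mdm2, Mdm4, Cdkn1a, Bbc3, Pmaip1 and Ccng1 whatever their p and for the 8 other genes with the smallest p, values by litter for the 6 with the smallest litter p, and 3 genes for each further list. Other genes of the network are named with fewer values. Alternatives covered the pseudocount, the filter, 3 scalings, litter or replicate number as a block, the Actb ratio, probe set means and leaving out arrays or litters. Replicate numbers do not pair the samples by litter. The arrays numbered 1, 4 and 6 came from different litters, while those numbered 2, 3 and 5 shared one. Correlations of same-numbered arrays ranged from -0.264 to 0.399. This cannot decide on a pairing, since wild-type and knock-out arrays of the same litter ranged from -0.11 to 0.574 and those of different litters from -0.361 to 0.399.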

Additional observations from a re-analysis of the deposited data

Results flagged for a closer look

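In 7 of the 66 sets of arrays examined, 1 for each genotype of each gene of the network and Meg3, a single array stood apart from the others of its genotype by the criterion of Dixon, which flags about 1 set in 20 by chance. In wild-type brains, wild-type 1 was lowest for Rchy1 (1439, others 1729 to 1927) and for Ccng1 (560.6, others 1307 to 1817), wild-type 2 was lowest for Phlda3 (257.1, others 486.8 to 644), and wild-type 4 was highest for Tnfrsf10b (46.43, others 3.305 to 7.219, all below the filter). In knock-out brains, knock-out 2 was highest for Ckap2 (487.6, others 243.6 to 301.7), knock-out 4 was lowest for Dram1 (9.395, others 48.16 to 103.8) and knock-out 7 was lowest for Tigar (201.2, others 300.5 to 396.6). The causes were not tested.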

How the results depend on the processing

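In all 31 alternatives of the genotype comparison 0 genes of the network were called with limma, where the count at an unadjusted p under 0.05 was at most 1 higher or 2 lower, and between 2 and 4 of all genes were called. In the 23 alternatives of the litter comparison 0 were called (smallest adjusted p 0.0582), and in the 4 of the probe set comparison 0. The median log2 difference of the network ranged from -0.18 with median centring to 0.08 without litter 250. Of 16 single genes 7 never changed sign, Meg3 and Pmaip1 among them. Signs changed as follows, and none of these values was called. Median centring, which moves all genes down, gave -0.040 for Mdm2, -0.19 for Bbc3, -0.051 for Ccng1, -0.068 for Zmat3, -0.035 for Phlda3 and -0.10 for Apaf1. Bbc3 was -0.064 with quantile normalization, -0.047 with equal trimmed means, -0.12 with the Actb ratio as a covariate, -0.10 without the arrays whose Actb ratio stands apart, -0.072 without both wild-type arrays of litter 219, -0.086 without litter 219 and -0.021 without litter 262. Phlda3 was -0.035 without the arrays whose Actb ratio stands apart. Means over probe sets gave 0.059 for Cdkn1a, 0.0083 for Tigar and 0.16 for Sesn2. Cdkn1a was 0.0045 without litter 238, and Sesn2 was 0.14 without litter 250 and 0.13 without litter 262. The cause of these changes was not tested. The alternative without both wild-type arrays of litter 219 was chosen after seeing the data.

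With each array left out in turn, the log2 difference ranged from -0.13 to 0.083 for Bbc3, from -0.074 to 0.26 for Ccng1, from -0.17 to 0.028 for Cdkn1a, from -0.018 to 0.24 for Phlda3 and from -0.19 to 0.19 for Sesn2. The median of the network ranged from -0.0097 to 0.06.

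With the replicate number as a block (replicate block), 0 genes of the network were called, the median was 0.05 and Sesn2 was 0.031, while knock-out 7 has no partner of its number. With litter as a block 0 were called and the median was 0.06.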
